A study of Mus musculus with 2 samples.

Results

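Immediate early genes are transcribed within minutes of a stimulus such as serum, a growth factor or mechanical stress, before any new protein is made. Several of them encode subunits of AP-1, a dimeric transcription factor in which a FOS protein pairs with a JUN protein or JUN proteins pair with each other. The same genes are known to respond when tissue is digested or cells are detached, so they are read both as a mark of stimulation and as a mark of handling. Here 10 such genes, Fos, Fosb, Fosl1, Jun, Junb, Egr1, Atf3, Ier2, Ier3 and Dusp1, were taken by name from the 32285 genes listed in both matrices. The list was drawn up with earlier results of these data known. All 10 were found in both depots.

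The cells were adipose progenitors of C57/BL6J neonates, P0 in the labels, from stromal vascular fractions of pooled male and female pups. Subcutaneous white depots were digested with collagenase type I for 35 minutes and interscapular brown depots for 50 minutes. Both cultures received medium with 20% FBS, changed every 2 days, became confluent in 4 days and were lifted with Trypsin-EDTA for 3 minutes before live cells were captured for 10x 3′ sequencing. Neither group carried a transgene or received a drug. With 1 library for white (WAT) and 1 for brown adipose tissue (BAT), depot, digestion time and library cannot be told apart, and no value below has a replicate or a test.

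Levels are sums of unique molecular identifiers (UMIs) over the cells of a group, scaled to counts per 1e6 UMIs (CPM). The range in parentheses after a level is its exact Poisson interval at 95%, and after a log2 ratio a conditional binomial one. All of these cover counting error only. The libraries held 5261 white and 7009 brown cells, at medians of 26239 and 26411 UMIs, and shared 9 barcodes. Clusters were those the authors named, known here for 1999 precursor cells per depot. In these cells all 6 markers of adipocyte precursors were over 50 CPM in both depots, the glial, myeloid, myogenic and endothelial lists summed to between 2.27 and 10.2 CPM, the mural list to 91.8 CPM in WAT and 66.9 in BAT, and Sox10, Myod1, Myf5 and Myog were at 0 in WAT.

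FOS, FOSB and FOSL1 (FRA1) are FOS-type subunits of AP-1, and JUN and JUNB are JUN-type subunits. Egr1 encodes a zinc finger transcription factor induced through ERK signalling, and Atf3 a stress-induced factor of the ATF/CREB family that can pair with JUN proteins. Ier2 encodes a small nuclear protein, Ier3 a protein linked to cell survival, and Dusp1 a phosphatase that switches MAP kinases off.

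In the GRCm38 annotation Fos lies on chromosome 12, 85473890 to 85477273, plus strand, and Fosb on chromosome 7, 19302696 to 19310051, minus strand. Jun, whose annotated transcript has 1 exon, lies on chromosome 4, 95049034 to 95052222, minus strand, and Junb, with transcripts of 1 or 2 exons, on chromosome 8, 84974484 to 84978718, minus strand. Jun overlaps Junos and Junb overlaps Prdx2 on the opposite strand. RefSeq promoter sequences (GRCm38.p6) were matched for 7 of the 10 genes. Those of Fos and Fosb, the pair most alike over cells, and of Jun and Junb, which moved apart between the depots, are given as 150 bases on the strand of the gene, 5′ to 3′. They end 1 base before the RefSeq start, or 7 bases for Fosb. Capitals mark TGACG, the core of the cAMP response element (CRE) that CREB and ATF proteins bind.
Fos, chr12:85473740-85473889, plus strand: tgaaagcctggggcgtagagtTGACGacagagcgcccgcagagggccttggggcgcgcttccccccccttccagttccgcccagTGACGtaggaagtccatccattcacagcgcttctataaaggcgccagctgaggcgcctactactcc
Fosb, chr7:19310052-19310201, minus strand: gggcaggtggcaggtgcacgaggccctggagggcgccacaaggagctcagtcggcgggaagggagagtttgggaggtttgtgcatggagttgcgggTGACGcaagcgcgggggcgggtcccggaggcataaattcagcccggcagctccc
Jun, chr4:95052223-95052372, minus strand: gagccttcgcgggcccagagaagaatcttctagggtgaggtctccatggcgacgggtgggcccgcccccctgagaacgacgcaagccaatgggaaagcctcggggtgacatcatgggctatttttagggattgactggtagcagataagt
Junb, chr8:84978749-84978898, minus strand: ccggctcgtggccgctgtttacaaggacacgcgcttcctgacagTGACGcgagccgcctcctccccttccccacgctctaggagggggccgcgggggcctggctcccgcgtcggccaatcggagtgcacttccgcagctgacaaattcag

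Within 250 bases before the start and on both strands, TGACG was matched at 129 to 125 and 66 to 62 bases before the start of Fos, at 60 to 56 in Fosb and at 106 to 102 in Junb. Its match in Atf3 lies on the other strand at 7 to 3 bases. Dusp1 holds the full CRE, TGACGTCA, at 143 to 136 bases, which contains the core on both strands, and a further core at 191 to 187. The core was not matched in these windows of Jun and Ier3. Of all 32851 promoters over the same length, 1.55% hold the full CRE and 17.8% the core. The AP-1 site TGANTCA, held by 6.75%, and the CArG box of serum response factor, held by 1.47%, were matched in none of the 7. Bases further from the start were not searched, nor were Fosl1, Egr1 and Ier2, so sites there are not excluded. Only exact matches were counted. Variants, such as TGACATCA in the printed Jun sequence, were left out, so sites of that kind are not excluded either.

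The 6 genes Egr1, Fos, Jun, Junb, Fosb and Ier2 made up most of the signal in both depots. In white precursor cells Egr1 was at 267 CPM (262 to 271), Fos at 264 (259 to 268) and Jun at 251 (247 to 256), and these led the order. Junb was at 193 CPM (189.7 to 197), Fosb at 188 (185 to 192) and Ier2 at 135 (132 to 138). The others were at 61.1 (Ier3), 23.3 (Dusp1), 10.4 (Atf3) and 6.99 CPM (Fosl1). Together the 10 genes took 1400.2 CPM (1391 to 1409.9), or 0.14% of all UMIs. As 1 count is 1 molecule tagged at its 3′ end, levels were not divided by gene length.

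The order was another in brown precursor cells, where Junb stood second. Egr1 was at 223 CPM (219 to 226), Junb at 206 (202 to 209.6), Fos at 175 (172 to 178) and Jun at 174 (170.4 to 177). Ier2 was at 149 CPM (146 to 152), above Fosb at 111 (108 to 114). Ier3 was at 70.6, Dusp1 at 21.2, Fosl1 at 8.01 and Atf3 at 6.91 CPM. Fos and Jun in BAT did not differ beyond counting error, and the sum of the 10 was 1144 CPM (1136 to 1153).

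Between the depots the genes divided. Lower in brown cells were Fosb, with a log2 ratio of -0.76 (-0.80 to -0.71), Atf3 with -0.60 (-0.78 to -0.41), Fos with -0.59 (-0.63 to -0.55), Jun with -0.53 (-0.57 to -0.50) and Egr1 with -0.26 (-0.29 to -0.23). Slightly higher were Junb with 0.09 (0.05 to 0.13), Ier2 with 0.14 (0.10 to 0.18) and Ier3 with 0.21 (0.14 to 0.27). Dusp1 had -0.14 (-0.25 to -0.03) and Fosl1 0.20 (0.00 to 0.39). The sum of the 10 was 1.22-fold higher in white cells, a log2 ratio of -0.29 (-0.31 to -0.28).

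Of the 9 members with at least 10 CPM in either depot, 0 passed a 2-fold difference, against 1.83% of 9041 genes tested. At 1.5-fold 3 passed, Fos, Fosb and Atf3, all lower in brown cells, against 5.1% of genes in either direction and 3.26% in that direction. The median log2 ratio of the 9 was -0.26, beside -0.04 over all genes tested.

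The depot differences were also present among cells alike in cell cycle phase or depth. Within cells scored as G1, S or G2/M and within 4 bins of UMIs per cell, Fos, Fosb, Jun and Egr1 were lower in brown cells in 7 of 7 splits, each with an interval below 0. The log2 ratios ran from -0.76 to -0.54 for Fos, from -0.87 to -0.66 for Fosb, from -0.69 to -0.45 for Jun and from -0.41 to -0.20 for Egr1. Atf3 was lower in 7 of 7, with 5 intervals below 0. Junb was higher in 6 of 7, with 4 intervals above 0, and Ier2 in 6 of 7, with 6.

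**Figure D1:**
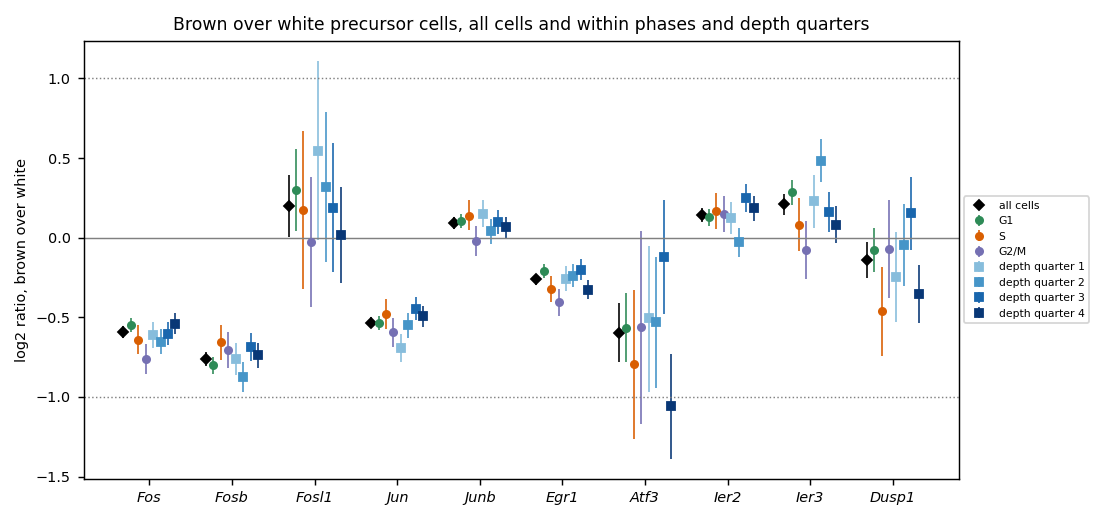
Log2 ratio of brown over white precursor cells for each gene with 95% counting intervals, for all labelled cells, for cells in G1, S and G2/M and for 4 bins of UMIs per cell, with dotted lines at 2-fold. Fos, Fosb, Jun and Egr1 lie below 0 in all 7 splits, whereas Junb and Ier2 lie above 0 in 6 of 7.

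The depots were also set side by side for CAPs, FAPLs and APC 3, which the study marks by Cdca3 and Kif20a in both depots. APC 1, APC 2 and APC 4, numbered within each depot, were not paired. Fos, Fosb, Jun and Egr1 were lower in brown cells in 3 of 3 pairs (CAPs, APC 3 and FAPLs), with log2 ratios for Jun from -0.87 to -0.46. Junb was higher in 3 of 3, from 0.07 to 0.23. No member passed 2-fold in any of these 3 pairs, against 4.32% of genes for CAPs, 2.67% for APC 3 and 1.69% for FAPLs. Clusters that share only a number kept to these patterns in part. Fosb did, at 161 CPM (152 to 170) in wAPC 2 and 69.3 (64.7 to 74.2) in bAPC 2. Egr1 was not lower in bAPC 1, at 248 (241 to 255), than in wAPC 1, at 240 (232 to 248). Junb was not higher in bAPC 4, at 185 (173 to 198), than in wAPC 4, at 210 (189 to 233). Ier3, which is outside these patterns, was at 46.6 (36.9 to 58.0) in wAPC 4 and 103 (94.4 to 113) in bAPC 4.

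The ratio of Junb to Jun mRNA thus differed between the libraries. Protein was not measured. Jund, another JUN gene, was at 300.5 CPM in white and 299 in brown cells and is not part of this ratio. White precursor cells held 0.77 Junb UMIs per Jun UMI (0.75 to 0.79) and brown ones 1.18 (1.15 to 1.22). Among white clusters of over 50 cells the ratio ran from 0.70 in wCAPs to 0.92 in wFAPLs. Among brown clusters it ran from 0.89 in bAPC 1 to 1.48 in bCAPs and 1.56 in bFAPLs, so that bAPC 1 and bAPC 4 (0.90) fell within the white range and the other 5 brown clusters above it. Fosb UMIs per Fos UMI were 0.71 (0.70 to 0.73) in WAT and 0.64 (0.62 to 0.66) in BAT.

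The 15 differentiating wFAPLs are described on their own after the other clusters, and the orders, ranges and lowest levels of white clusters leave them out. Among the other clusters, committed adipogenic progenitors (CAPs) held the highest sum of the 10 genes in both depots. It was 1619 CPM (1602 to 1637) in wCAPs, 1499 in the fibro-adipogenic progenitor-like wFAPLs, and in the early clusters wAPC 4, wAPC 2, wAPC 1 and wAPC 3 it was 1389.5, 1369.6, 1218 and 1115 CPM. In BAT it was 1296 CPM (1272 to 1321) in bCAPs, 1212 in bFAPLs, 1185 in bAPC 4, 1167 in bAPC 1, 1158 in bAPC 5, 1031 in bAPC 2 and 909 in bAPC 3. The APC 3 clusters were lowest in each depot. Among bFAPLs, bAPC 4, bAPC 1 and bAPC 5, neighbours in the order did not differ from each other beyond counting error. The clusters were formed from the same cells, so these levels are a description.

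Fos was led by CAPs in both depots. It was at 320.2 CPM (312 to 328) in wCAPs, 304 (291 to 317) in wFAPLs, and for wAPC 2, wAPC 3, wAPC 1 and wAPC 4 the levels were 262, 211, 202 and 194 CPM. In BAT it was at 231 CPM (221 to 242) in bCAPs, 203 in bAPC 5, 200.3 in bFAPLs, 179 in bAPC 1, 157 in bAPC 4, 133 in bAPC 2 and 122 in bAPC 3. The last 3 white clusters, the pair bAPC 5 and bFAPLs and the pair bAPC 2 and bAPC 3 did not differ beyond counting error between neighbours.

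Fosb had a wider range, 1.83-fold in WAT and 2.16-fold in BAT. It ran from 251 CPM (244 to 258) in wCAPs and 201 (190.5 to 211) in wFAPLs to 137 (131 to 143) in wAPC 1. In BAT it ran from 149.6 CPM (141 to 158) in bCAPs to 69.3 (64.7 to 74.2) in bAPC 2. The highest brown cluster was thus near the level of wAPC 3, at 149 CPM (139 to 158).

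Jun ranked the clusters in another way. It was at 297 CPM (289.7 to 305) in wCAPs, 289 (264 to 316) in wAPC 4, 259 in wFAPLs, and for wAPC 2, wAPC 1 and wAPC 3 the levels were 251, 206 and 205 CPM. In BAT, bAPC 4 with 206 CPM (194 to 220.0) and bAPC 1 with 201 (195 to 208) were highest. The other 5 brown clusters, with bCAPs and bFAPLs among them, lay between 149 and 163 CPM and did not differ between neighbours.

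Junb was highest in FAPLs, with 238 CPM (227 to 249.9) in wFAPLs and 249 (238 to 261) in bFAPLs. In BAT it was at 242 CPM (231 to 252) in bCAPs, which did not differ from bFAPLs beyond counting error. The lowest clusters were wAPC 3 with 155 and bAPC 1 with 179.9 CPM.

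Egr1 was highest in wAPC 4 with 316 CPM (289.7 to 344) and wCAPs with 303 (295 to 311), and in bCAPs with 256 (246 to 268). It was lowest in wAPC 3 with 218 and bAPC 3 with 176 CPM. Ier2 ran from 113 CPM in wAPC 3 to 152 in wAPC 4, and from 109 in bAPC 3 to 175 in bCAPs.

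Fosl1 stood apart from the other FOS genes. It was at 14.4 CPM (12.5 to 16.5) in wAPC 1, between 4.71 and 5.67 in wAPC 2, wAPC 3, wAPC 4 and wCAPs, and at 2.09 (1.17 to 3.45) in wFAPLs. In BAT it was at 11.1 CPM (9.28 to 13.1) in bAPC 2, 9.87 in bAPC 4, 9.84 in bAPC 1 and 9.59 in bAPC 3, and at 4.39 in bCAPs, 3.18 in bFAPLs and 2.17 in bAPC 5. The clusters where Fosl1 was highest, wAPC 1 and bAPC 2, were those where Fosb was lowest. In BAT this rests on bAPC 2 alone. Its Fosl1 level and those of bAPC 4, bAPC 1 and bAPC 3 did not differ between neighbours beyond counting error. Of these, bAPC 1 stood second among brown clusters in Fosb, at 125 CPM (119 to 130). The study names Fosl1 as a marker of wAPC 1 from these cells, so its place there is not independent evidence.

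For wAPC 1 over wCAPs the log2 ratio was 1.59 (1.23 to 1.96) for Fosl1, -0.87 (-0.95 to -0.80) for Fosb and -0.66 (-0.73 to -0.60) for Fos. Fosl1 was the 1 member of 10 past 2-fold, against 3% of genes. For bAPC 2 over bCAPs it was 1.34 (0.80 to 1.91) for Fosl1, -1.11 (-1.24 to -0.98) for Fosb and 0.93 (0.77 to 1.10) for Ier3. There Fosl1 and Fosb were past 2-fold, 2 of 9 members against 5.57% of genes, with a median over all genes of -0.16. In both pairs Fosl1 reached 10 CPM only in the cluster where it was highest. Each pair also joined the highest and the lowest cluster of its depot for Fosb. The counts past 2-fold follow from that choice and are a description only.

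The less abundant Ier3, Dusp1 and Atf3 were each highest in bAPC 4 among brown clusters. Ier3 was at 103 CPM (94.4 to 113) there, 96.3 in bAPC 2 and 92.9 in bAPC 5, and at 77.0 (72.6 to 81.7) in wAPC 1. Dusp1 was at 33.7 CPM (28.6 to 39.4) in bAPC 4, 29.1 (25.3 to 33.4) in wFAPLs and 28.3 in wAPC 1. Atf3 was at 11.8 CPM (8.89 to 15.4) in bAPC 4, 13.9 (11.3 to 17.0) in wFAPLs and 12.6 in wAPC 1, and no neighbours in its order differed beyond counting error in either depot.

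**Figure D2:**
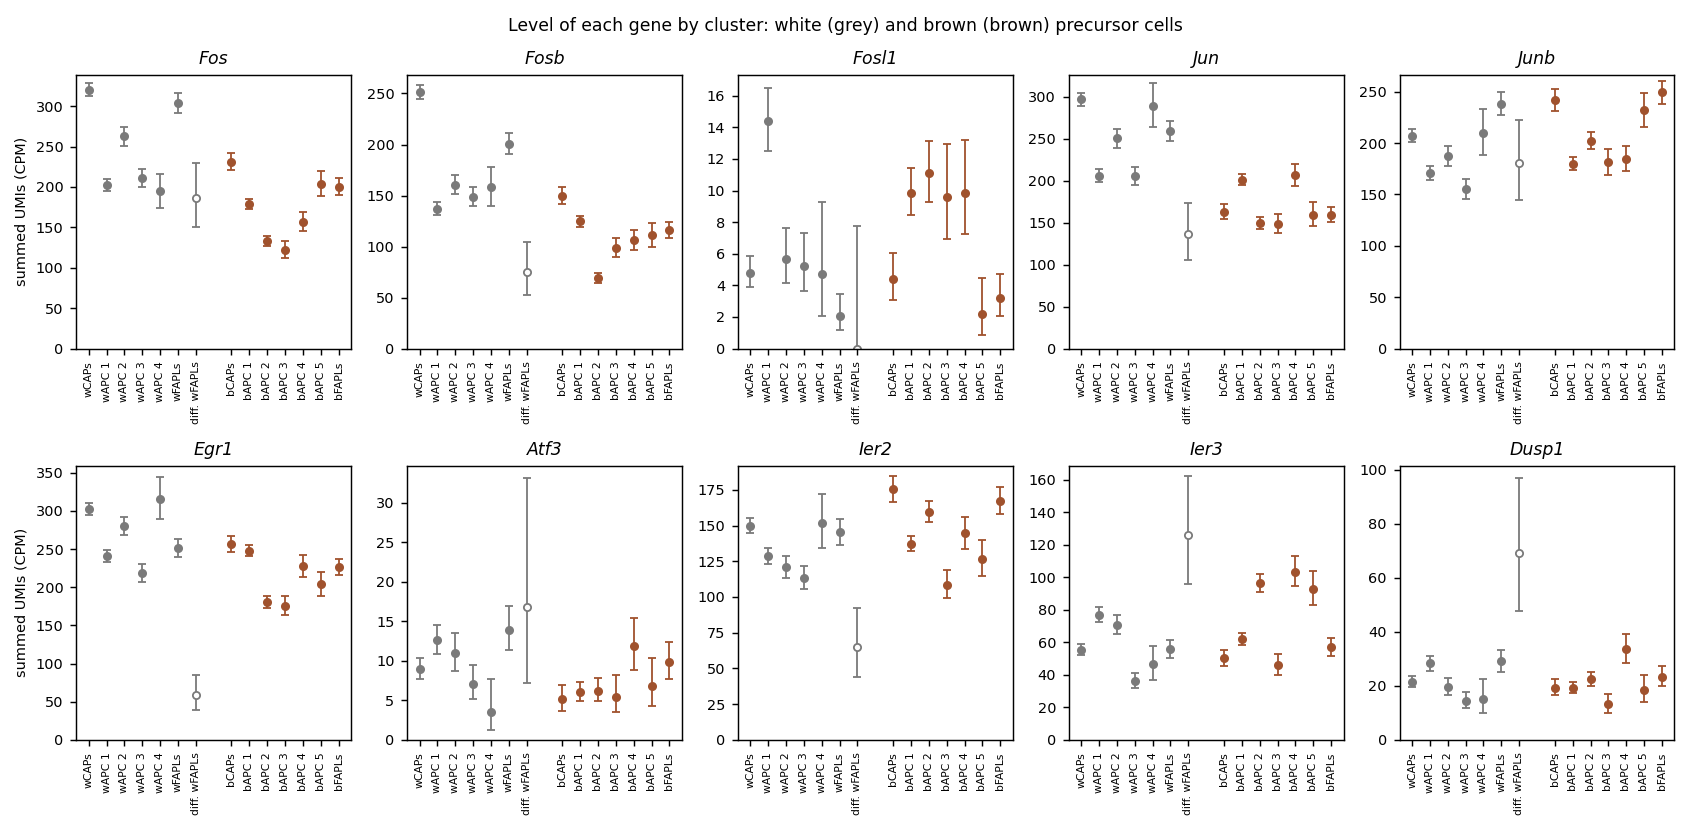
Level of each gene in CPM in the 7 white and 7 brown clusters, with 95% Poisson intervals and each panel on its own scale from 0. Fos and Fosb are highest in CAPs of both depots, Junb in FAPLs, and Fosl1 in wAPC 1 and bAPC 2.

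The 15 differentiating wFAPLs differed from wFAPLs in 5 of 9 members past 2-fold, against 22.3% of genes. Egr1 was at 58.7 CPM (39.0 to 84.9), a log2 ratio of -2.10, and Fosb and Ier2 had -1.41 and -1.16. Dusp1 and Ier3 were higher, at 1.25 and 1.18. Mural cell markers summed to 2917 CPM in these cells and to 257 in wFAPLs, and their part in the differences was not tested.

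Between FAPLs and CAPs, with the differentiating wFAPLs left out, no member passed 2-fold. Of these, 9 were tested in WAT and 8 in BAT, against 3.85% and 3.87% of genes past it. FAPLs were lower in Fosb, with log2 ratios of -0.32 (-0.41 to -0.24) in WAT and -0.37 (-0.50 to -0.24) in BAT, and in Egr1, with -0.27 (-0.35 to -0.19) and -0.18 (-0.27 to -0.09). Junb was higher in wFAPLs at 0.20 (0.12 to 0.29), with 0.05 (-0.05 to 0.14) in BAT. The sum was at -0.11 (-0.14 to -0.08) in WAT and -0.10 (-0.14 to -0.06) in BAT, and with labels carried over to all kept precursor cells at -0.037 and -0.040. Mural cell markers moved with this comparison, with 4 of 5 past 2-fold in each depot, none at 0 and summed levels of 257 CPM in wFAPLs against 38.7 in wCAPs and 219.8 CPM in bFAPLs against 66.9 in bCAPs. Their part in these differences was not tested.

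From these cells the study picked Atf3 as a driver gene of bFAPLs and as a regulon of wFAPLs, bAPC 2 and bFAPLs. A regulon score reads putative target genes, which is another measure than Atf3 mRNA. Atf3 mRNA was higher in FAPLs at full depth. Its log2 ratio was 0.64 (0.27 to 1.01) in WAT, where it was the 1 member past 1.5-fold against 8.71% of genes. There Atf3 reached 10 CPM in wFAPLs only, at 13.9 against 8.92 in wCAPs. In BAT the ratio was 0.94 (0.37 to 1.52), at 9.82 CPM in bFAPLs and 5.12 in bCAPs. Both levels are under the minimum of 10 CPM, so Atf3 was not among the brown members tested. The white value rests on 100 UMIs in wFAPLs and 173 in wCAPs. After each cell was thinned to 10000 UMIs, 24 and 71 were left and the ratio was -0.17. In BAT 24 UMIs in bFAPLs and 14 in bCAPs were left and the ratio was 0.86.

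Every member except Fosl1 was lower in G2/M than in G1 cells of both depots. Fos was at 296 CPM in G1, 231 in S and 201 in G2/M of white cells, and at 202, 148 and 118 in brown cells. The log2 ratio of G2/M over G1 for the sum was -0.49 (-0.52 to -0.46) in WAT and -0.60 (-0.63 to -0.57) in BAT. It was furthest from 0 for Atf3, with -1.33 (-1.75 to -0.94) and -1.33 (-1.84 to -0.85). Ier3 had -0.68 (-0.82 to -0.54) and -1.05 (-1.19 to -0.91), whereas Fosl1 had 0.40 (0.05 to 0.74) and 0.07 (-0.27 to 0.40).

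Past 2-fold were 1 of 9 white and 1 of 8 brown members, against 5.66% and 5.61% of genes. Past 1.5-fold were 5 and 4, all lower in G2/M, against 12.2% and 12.5% of genes in either direction and 4.12% and 4.03% lower in G2/M. The members' medians were -0.59 and -0.60, beside 0.00 over all genes. Cells in G2/M were deeper, with medians of 31156 white and 32086 brown UMIs against 25505 and 25349 in G1.

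Within single clusters the sum was lower in G2/M in 5 of 5 white clusters, at log2 ratios from -0.50 to -0.31, and in 5 of 5 brown ones, from -0.71 to -0.24. Fos, Jun and Ier3 had an interval below 0 in all 10. Ier2 went the other way in bAPC 3, at 0.48, and Fosl1 was higher in 2 white and 4 brown clusters.

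**Figure D3:**
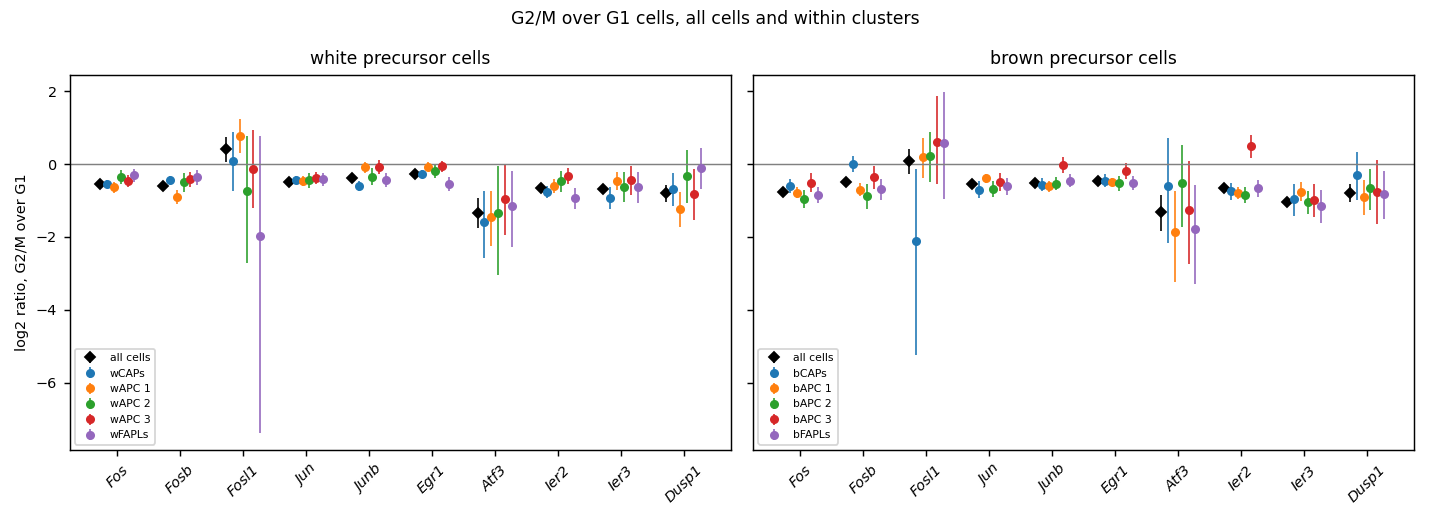
Log2 ratio of G2/M over G1 cells for each gene with 95% counting intervals, for all labelled cells and within 5 clusters of each depot. In all cells every gene but Fosl1 lies below 0, and Fosl1 and Atf3 have the widest intervals.

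The members' share of UMIs also went down with depth. From the shallowest to the deepest of the 4 bins, with medians of 19247 and 39872 UMIs in WAT and 19630 and 40320 in BAT, the sum was at 1642 and 1271 CPM in white and 1322 and 1033 in brown cells. Fos was at 326 and 229 CPM in white cells and Junb at 263 and 181 in brown cells. Fosl1 was higher in the deepest white cells, with a log2 ratio of 0.82 (0.34 to 1.33). The part of depth in the phase difference was not tested.

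Single cells differed widely. Thinned to 10000 UMIs, Egr1 was found in 87.2% of white and 82.0% of brown precursor cells, Junb in 75.9% and 79.0%, Fos in 81.5% and 67.8%, and Fosb in 70.9% and 55.1%. Ier3 was found in 38.3% and 41.2%, Dusp1 in 16.8% and 17.1%, Atf3 in 8.85% and 5.85% and Fosl1 in 6.50% and 6.35%. Unthinned, Fos was found in 93.6% and 86.8%, and Atf3 in 19.8% and 15.0%. In 32 myogenic cells of BAT, at a median of 27282 UMIs, the thinned share was 31.3% for Fos and Atf3 was found in 0 of 32.

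A thinned cell held a median of 13 UMIs of the 10 genes in WAT, with quartiles of 9 and 19, and of 11 in BAT, with quartiles of 7 and 16. The values ran from 0 to 52 and from 0 to 42, and 9 white and 17 brown cells held none. All 6 abundant genes were found together in 28.2% of white and 19.2% of brown cells. The variance of thinned counts over their mean was 2.20 and 2.16 for Fos and 2.31 and 2.12 for Jun. For the sparse Fosl1 it was 1.10 and 1.14, and for Atf3 1.15 and 1.15. The median over genes with a thinned mean of at least 0.05 UMIs was 1.07 in WAT. Those genes were not matched to the members in level, and Fos had a mean of 2.76 in WAT.

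Over cells, Fos went most closely with Fosb. Pearson's r of log-normalized levels was 0.50 in WAT and 0.48 in BAT, over 1999 cells each, and 0.37 and 0.34 in thinned counts. It was 0.38 and 0.28 for Fosb with Jun, 0.33 and 0.32 for Egr1 with Ier2, and 0.31 and 0.33 for Junb with Ier2. Jun and Junb had 0.14 and 0.08, and Fosl1 had between -0.11 and 0.07 with the other members. These are descriptions over cells of 1 library each, which share depth and phase.

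**Figure D4:**
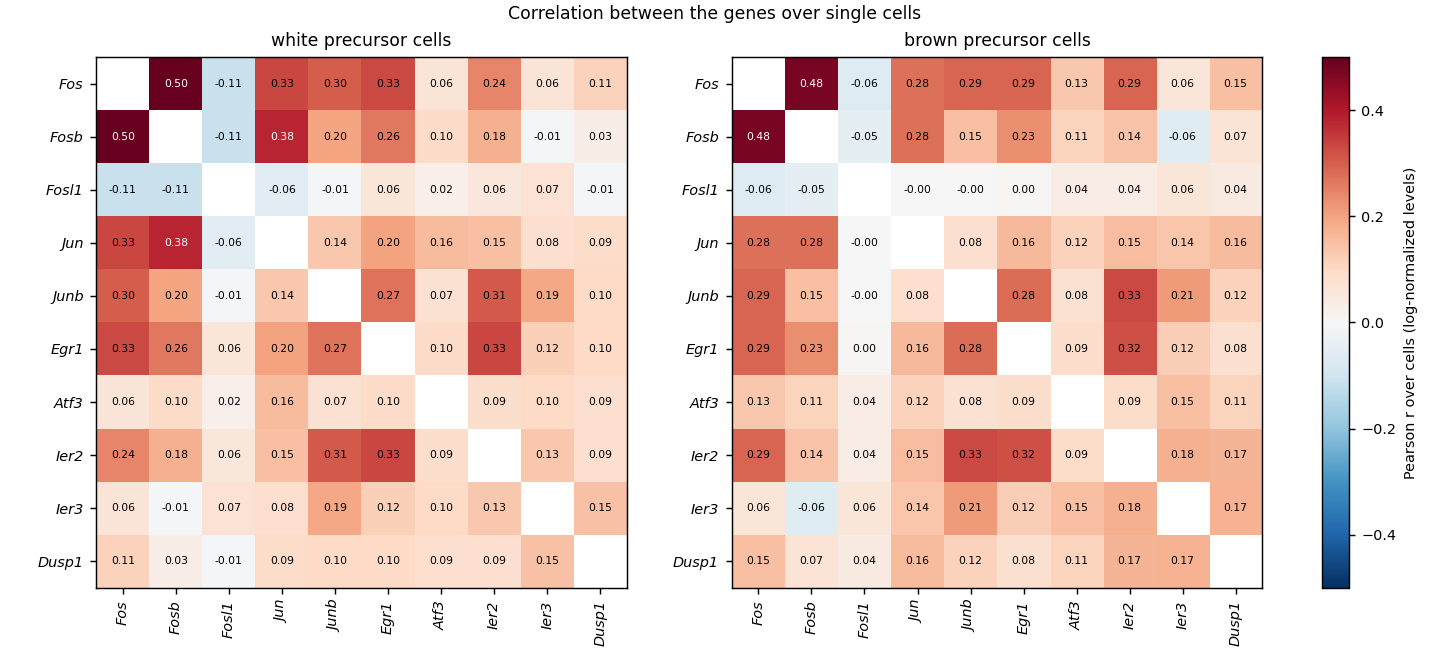
Pearson's r between each pair of genes over the 1999 labelled precursor cells of each depot, on log-normalized levels. Fos and Fosb form the highest pair in both depots, at 0.50 and 0.48, and the values of Fosl1 lie near 0.

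Among all other genes, those most like the members' summed level in WAT were, with r, Jund (0.36), Zfp36 (0.35), Dapk1 (0.30), Rora (0.29), Plxdc2 (0.29), Btg2 (0.29), Klf2 (0.29), Ccn1 (0.28), Zbtb20 (0.27) and Col3a1 (0.27). In BAT they were Btg2 (0.34), Zfp36 (0.31), Jund (0.31), Klf2 (0.31), Ccn1 (0.25), Neat1 (0.25), Nfkbiz (0.24), Errfi1 (0.23), Nr4a1 (0.23) and Col3a1 (0.23). Jund encodes another JUN subunit, Zfp36 a protein that speeds the decay of AU-rich mRNAs, Btg2 an antiproliferative protein and Ccn1 a matricellular protein. Jund, Zfp36, Btg2, Klf2, Ccn1 and Col3a1 are on both lists of 10.

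Of 27 other immediate early genes in enough cells, 16 in WAT and 13 in BAT had an r above 0.1 with the members' sum, beside 5.22% and 3.63% of all genes. Heat shock genes, which are also known to rise on dissociation, had 0 of 13 in both depots. Their list summed to 5292 CPM in white and 5316 in brown cells, led by Hsp90ab1. The inducible Hspa1a and Hspa1b, near-identical copies whose reads may be split, were at 4.45 and 7.81 CPM in WAT and 4.24 and 8.17 in BAT.

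Brown over white, 0 passed 2-fold of 13 other AP-1 family, 24 other immediate early, 9 ERK feedback and output, 11 heat shock, 15 ATF4 stress response and 8 AP-1 linked output genes tested, against 1.83% of all genes. The median log2 ratios were -0.08, -0.03, -0.24, -0.01, -0.13 and 0.07, in that order. Jund had -0.01 (-0.04 to 0.02), at 300.5 CPM in white and 299 in brown cells.

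Between FAPLs and CAPs, 1 of 13 other AP-1 family, 1 of 24 other immediate early, 2 of 12 heat shock and 1 of 9 AP-1 linked output genes tested passed 2-fold in WAT, and 0 of 9 ERK and 0 of 15 ATF4 genes, against 3.85% of all genes. In BAT it was 2 of 13 other AP-1 family, 1 of 23 other immediate early, 1 of 9 ERK and 1 of 15 ATF4 genes, and 0 of 12 heat shock and 0 of 9 AP-1 linked output genes, against 3.87%. Maf, a bZIP factor gene of the large MAF group, was lower in FAPLs of both depots, with log2 ratios of -1.90 (-2.14 to -1.68) in WAT and -1.02 (-1.27 to -0.76) in BAT. Klf4, a zinc finger gene, was higher in bFAPLs at 1.22 (1.04 to 1.41), and Sgk1, a serum-induced kinase gene, lower in wFAPLs at -1.10 (-1.33 to -0.88). In wFAPLs the small heat shock gene Hspb1 had 1.16 (1.03 to 1.28), Hspa1b 1.11 (0.68 to 1.54) and the cytokine gene Il6 1.78 (1.31 to 2.25). In bFAPLs Trib3, a pseudokinase gene of the ATF4 response, had 1.19 (0.91 to 1.48) and the ERK-linked Phlda1 -1.21 (-1.52 to -0.90). Between phases Btg2 was lower in G2/M, at -1.09 (-1.24 to -0.94) in WAT and -1.03 (-1.16 to -0.90) in BAT.

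Other cell types of the same libraries held the genes in other proportions. Their types were carried over from labelled cells and gave 46 white and 68 brown glial cells, 29 and 77 myeloid cells and 32 brown myogenic cells. In glial cells Jun was at 732 CPM (681 to 785) in WAT and 640.1 (600.4 to 682) in BAT, which made up 55.9% and 52.6% of the members' UMIs. Egr1 was at 36.0 CPM (25.5 to 49.4) and 47.0 (36.7 to 59.3), with log2 ratios to precursor cells of -2.89 and -2.24. The sums were 1308 and 1217 CPM.

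Atf3 was higher in glial and myeloid than in precursor cells. It was at 91.8 CPM (74.5 to 112) in white and 78.1 (64.7 to 93.5) in brown glial cells, and at 133 (109 to 159) and 70.7 (59.8 to 83.1) in myeloid cells. The log2 ratios to precursor cells were 3.14, 3.50, 3.67 and 3.36. Myeloid cells also held more Dusp1, at 74.5 CPM (57.3 to 95.4) in WAT and 82.1 (70.4 to 95.3) in BAT, and less Fosb, at 71.0 and 30.9 CPM.

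Brown myogenic cells had the lowest sum, 459 CPM (417 to 504). Fos was at 37.6 CPM (26.4 to 52.1), Fosb at 11.5 (5.74 to 20.6) and Jun at 116 (95.4 to 139.7). Atf3 had 0 UMIs, which allows a level of up to 3.14 CPM. All of these cells went through the same trypsin step as the precursors of their library, and its part in these levels was not tested.

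Past 2-fold against precursor cells were 8 of 10 members in white and 6 of 10 in brown glial cells, against 26.8% and 24.9% of genes. In myeloid cells it was 6 of 9 in each depot, against 39.7% and 35%, and in myogenic cells 6 of 9, against 34.3%.

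**Figure D5:**
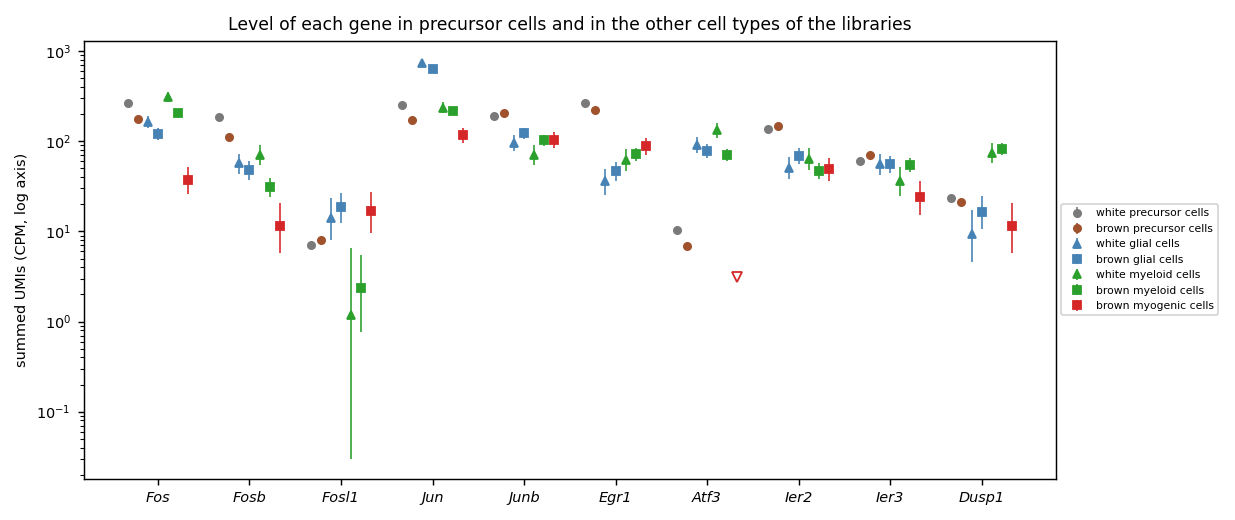
Level of each gene in CPM on a log axis with 95% Poisson intervals, for precursor, glial, myeloid and myogenic cells of each library, where the open triangle is the limit for 0 UMIs. Jun is highest in glial cells, Atf3 in glial and myeloid cells, and Fos and Fosb are lowest in myogenic cells, where Atf3 had 0 UMIs.

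Cells outside the limits on genes and mitochondrial UMIs did not have a higher sum. White cells under the gene minimum, 529 cells at a median of 3492 UMIs, had 1239 CPM, and the 349 brown ones 899.9. Cells with over 5% mitochondrial UMIs had 1082 CPM in WAT and 641 in BAT. Among labelled cells the members' share of UMIs had an r of 0.05 and 0.08 with the mitochondrial percent. The part of serum, of confluency and of lifting in these levels was not tested.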

How the data were processed

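Single-cell RNA sequencing gave 1 library per depot. The authors made the deposited counts, UMIs of each gene in each cell, in Cell Ranger 7.0.1 against mm10 with default parameters, and did not normalize them.

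Cells with 3900 to 7700 genes, 1.7 to 5% mitochondrial UMIs and 6000 to 60000 UMIs were kept, 4407 white and 6137 brown. Doublets were not called. Cluster labels came from source data of the study, read for 1999 precursor cells per depot. Other cells took the label of most of their 15 nearest labelled neighbours (types: 5), which gave back 91.0% of white and 85.8% of brown cluster labels. Cell cycle phase was called in scanpy 1.11.5 from the usual S and G2/M gene lists. A fold was read only for genes with 10 CPM in either group. With 1 library per depot there is no p-value. Correlations used genes found in at least 5% of cells. Work was done in Python 3.11.15 (pandas 2.3.3, numpy 2.4.6, scipy 1.17.1, scikit-learn 1.9.0, matplotlib 3.10.9), and the statistics were tested on simulated data.

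The members and lists were chosen with earlier results of these data known. Named were all members, the genes of other lists past 2-fold or highest in their list, and the 10 genes most correlated with the members' sum. Hspa1a and Hspa1b were named after their values were seen. Alternatives were carried-over labels, thinning to 10000 UMIs, means of per-cell CPM, G1 cells, cells of 15000 to 40000 UMIs, median-of-ratios scaling, 1.5-fold, and no minimum or 50 CPM. Some genes of the lists are not reported here.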

Additional observations from a re-analysis of the deposited data

How the results depend on the processing

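No paired analysis was possible because there is 1 library per depot. The sum of the 10 genes, brown over white at -0.29 (log2), kept its direction under every alternative run, with -0.32 for carried-over labels, -0.27 for G1 cells alone, -0.27 for cells of 15000 to 40000 UMIs and -0.27 for median-of-ratios scaling. For FAPLs over CAPs carried-over labels moved it from -0.11 to -0.037 in WAT and from -0.10 to -0.040 in BAT, and the cause was not tested. At 1.5-fold, 3 members passed between depots in place of 0, and 1 (Atf3) between wFAPLs and wCAPs. Without a minimum level 1 (Fosl1) passed 2-fold between wFAPLs and wCAPs, and in G1 cells alone 1 (Atf3) between bFAPLs and bCAPs. Of 180 log2 ratios of single genes under alternatives 158 stayed within their counting interval, 21 moved outside it and 1 reversed, Atf3 in wFAPLs over wCAPs at -0.17 after thinning. Of 90 correlations in thinned counts 39 stayed within their interval over cells, 50 moved outside it and 1 whose interval left out 0 changed sign, Fosl1 with Ier3 in BAT at -0.026. Other pairs of Fosl1 with r near 0 also changed sign. Of 140 shares of cells with a UMI 132 moved outside their interval with thinning, which lowers the depth. Depth limits Fosl1 and Atf3 most, with 401 and 599 UMIs in white and 463 and 399 in brown precursor cells.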

Other observations

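The genes most like Fosl1 over cells were other genes than those most like the members' sum, and they were chosen after values were seen. In WAT they included, with r, Hmga2 (0.26), Tnfrsf12a (0.25), Phlda1 (0.21) and Csf1 (0.19). In BAT they included Arl4c (0.20), Phlda1 (0.17), Egr2 (0.17), Hmga2 (0.15) and Tnfrsf12a (0.15). In thinned counts the r of these genes, in the same order, was 0.19, 0.13, 0.096 and 0.12 in WAT and 0.10, 0.091, 0.036, 0.069 and 0.058 in BAT. Of 16 ERK feedback and output genes 12 in WAT and 5 in BAT had an r above 0.1 with Fosl1, beside 1.25% and 0.575% of all genes, and 1 in each depot had such an r with the members' sum. Fosl1 was found in 14.4% of white and 17.3% of brown cells before thinning, and in counts this sparse these values are a description only.

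Running most against the members' sum was Ran, a GTPase gene of nuclear transport, in both depots, with r of -0.39 in WAT and -0.33 in BAT. Cdc20, a gene of mitosis, had -0.32 and -0.30.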
